A study of Homo sapiens with 6 samples.

Results

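The genes described here are 114 abundant genes that the count table of ATRA-treated NB4 cells lists and the table of vehicle-treated cells does not. They were chosen by their measured values. Of the 12838 genes in the ATRA table and the 12752 in the DMSO table, 537 were in the ATRA table alone, and these were ranked by CPM (counts scaled to the library total) averaged over the 3 ATRA libraries. The 150 highest were kept, and 36 of them were then dropped by symbol, among them the CEACAM, DEFA, FCGR, LILR, S100, SIGLEC, TLR and FPR families, so that many well-known granulocyte genes are not among the 114. In all, 13289 genes were in either table. The level under ATRA and the absence from the DMSO table therefore made the selection and are given as a description, with no test. What the selection did not rank on is the difference between knockdown and control within ATRA and the position of these genes beside others in the genome.

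NB4 is a human acute promyelocytic leukemia cell line. SMARCD2, which encodes a part of the nucleosome-remodelling BAF complexes of the SWI/SNF type, was knocked down with either of 2 short hairpin RNAs, and a control construct stood beside them. Cells were given all-trans retinoic acid (ATRA) at 1 µM or the vehicle DMSO. The 6 libraries are thus a control, hairpin 1 and hairpin 2 in DMSO and the same 3 in ATRA. The results below rest on the 3 ATRA libraries, with 1 control and 2 knockdown libraries, and the labels do not say whether these came from separate cultures, so p-values measure only the spread between these libraries. All 3 carry the PML-RARA fusion of the line, as background, and how long ATRA was given was not stated in the labels used here.

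In acute promyelocytic leukemia, the fusion of PML with the retinoic acid receptor alpha holds genes of granulocyte maturation silent, and ATRA at pharmacological dose relieves this block, so that cells move toward neutrophil-like cells. Maturing neutrophils take up surface receptors for bacterial products, fatty acids and nucleotides, adhesion molecules for rolling on vessel walls, and a set of secreted cytokines. BAF complexes slide and evict nucleosomes at such genes, and SMARCD2 is the subunit whose inherited loss impairs the formation of specific granules in neutrophils.

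The ATRA libraries held 29521141 (control), 51324652 (hairpin 1) and 44370146 (hairpin 2) counts, each summed over 2 sequencing runs. Run 1 gave 53.1% of the control library, 75.9% of the hairpin 1 library and 71.4% of the hairpin 2 library, so the mix of runs differed between control and knockdown. The targeted gene SMARCD2 measured 117 CPM under the control construct, 61.3 under hairpin 1 and 34.01 under hairpin 2 (log2 fold change -1.29 ± 0.27, SE; adjusted p = 0.236, edgeR quasi-likelihood, Benjamini-Hochberg). Both hairpin libraries were below the control, and hairpin 2 was the lower. Markers of monocytes and macrophages summed to between 453 and 466 CPM in the 3 libraries (14 of 22 in the table, the others not listed), and lymphoid markers to between 294 and 332 CPM (10 of 19). Eosinophil, basophil and mast cell markers summed to 843 CPM under the control construct, 862 under hairpin 1 and 1289 under hairpin 2 (16 of 19). Erythroid and megakaryocyte markers summed to between 20.7 and 30.1 CPM (3 of 19) and fibroblast and endothelial markers to between 31.1 and 34.5 CPM (5 of 14). Among the 114 genes, 1 is on these marker lists, COL1A1.

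The 114 genes together took 0.1247% of the counts under the control construct, 0.126% under hairpin 1 and 0.123% under hairpin 2. Their sum was thus nearly the same in the 3 libraries, while single genes were not. The mean level ran from 2.07 CPM for CNGA4, a subunit of cyclic nucleotide-gated channels, to 82.4 CPM for DAAM2, a formin that acts on actin and in Wnt signalling. On the scale of CPM of the column total that the ranking used, SH2D1B (2.13), LIPM (2.09) and CNGA4 (2.07) were the last inside, and GPA33 (2.03), SCML4 (2.01) and SYT8 (1.99) the first outside. The DMSO table itself listed genes down to a mean of 0.173 CPM, and each gene in it had at least 8 counts in at least 1 run of a library. The 114 genes have no DMSO value, so no fold between treatments is given for them.

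Levels between genes were compared per kilobase of exon. On this scale GDF15, a stress-induced cytokine of the TGF-beta superfamily, had the highest mean level under ATRA, with 27.4 CPM per kb. The short-chain fatty acid receptor genes FFAR3 and FFAR2 stood at 21.1 and 19.1 CPM per kb, with DCSTAMP, a membrane protein needed for the fusion of osteoclasts and of macrophage giant cells, between them at 19.8. DAAM2 stood at 11.8 and the orphan receptor gene GPR82 at 10.7 CPM per kb. FFAR3 has a near-identical copy, GPR42, so its level is uncertain. The order of these genes moved between libraries, since GDF15 ran from 19.97 to 48.6 CPM and DCSTAMP from 33.2 to 45.8 CPM, while FFAR2 ran from 39.7 to 42.6 CPM.

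**Figure D1:**
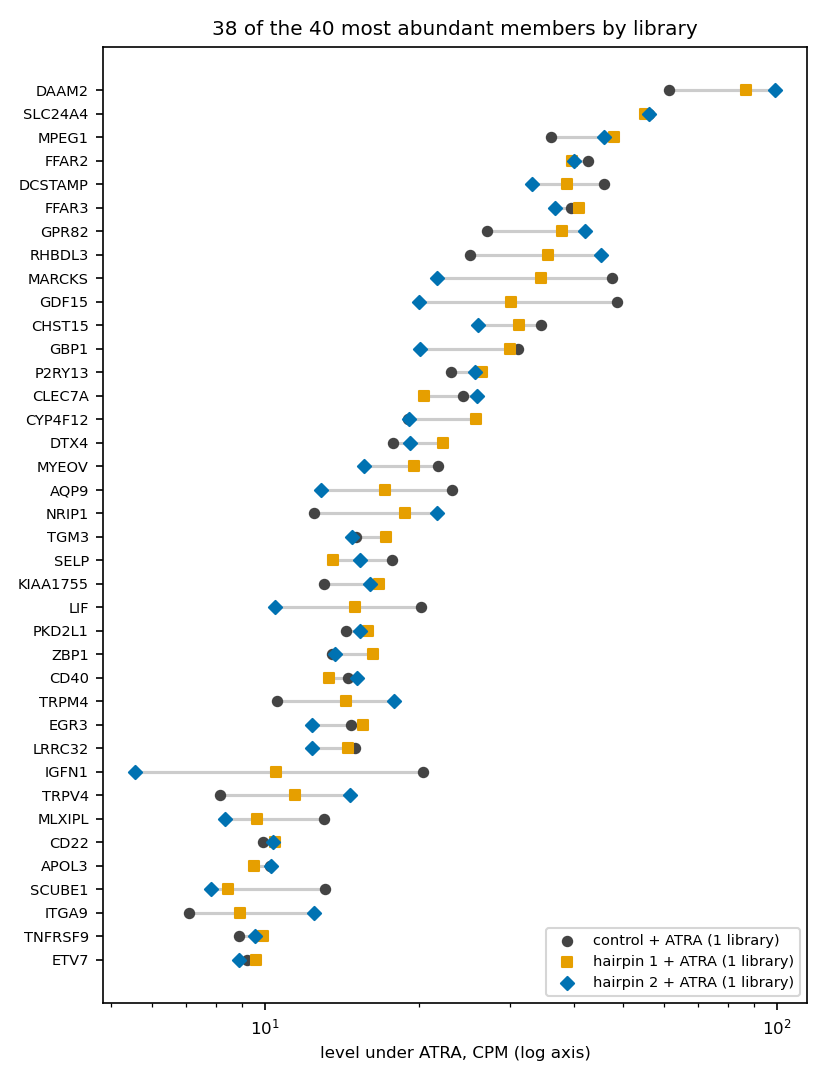
Level under ATRA of 38 of the 40 most abundant of the 114 genes (CPM scaled by TMM, log axis), 1 point per library for the control, hairpin 1 and hairpin 2. DAAM2 runs from 61.5 to 99.0 CPM with the control lowest, GDF15 from 19.97 to 48.6 CPM with the control highest, and the 3 points of SLC24A4 lie between 55.1 and 56.2 CPM.

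Setting the knockdown libraries beside the control under ATRA addressed which of these genes differ with the level of SMARCD2 once the cells are under ATRA. All 114 passed the filter on low counts. No member passed an adjusted p of 0.05 in edgeR's quasi-likelihood fit, Benjamini-Hochberg adjusted over all 12837 genes tested, in either direction, beside 0.0% of all genes called higher and 0.00779% called lower. The lowest adjusted p among the 114 was 0.160, for DAAM2. At an unadjusted p under 0.05 there were 17 higher (14.9%) and 13 lower (11.4%), beside 5.57% and 6.01% of all genes tested. limma-voom called 0 of the 114, and DESeq2 called 2 higher, DAAM2 (adjusted p = 0.00222) and RHBDL3 (adjusted p = 0.0389), and 0 lower, beside 0.22% and 0.238% of all genes with an adjusted p in DESeq2. The test has 1 residual degree of freedom per gene, which comes from how far the hairpins differ. edgeR also draws on the spread of the other genes, so the SE of a gene is not set by its hairpins alone. The single control library is taken to vary as the hairpin libraries do. In bulk RNA, fewer cells that express a gene and less of its RNA per cell cannot be told apart.

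Both hairpin libraries were above the control for 50 of the 114 genes (43.9%, beside 38.1% of all genes tested) and both below it for 42 (36.8%, beside 38.5%). The median log2 fold change of the 114 was 0.04, beside 0.00 over all genes. The share on each side was thus near that of all genes, while the share with large differences was not. Both hairpins were at least 1.5-fold above the control for 8 (7.02%, beside 1.31%) and at least 1.5-fold below it for 6 (5.26%, beside 1.62%). In the order of SMARCD2 itself, 35 went down from the control through hairpin 1 to hairpin 2 (30.7%, beside 25.2%) and 29 went up in that order (25.4%, beside 24.7%).

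**Figure D2:**
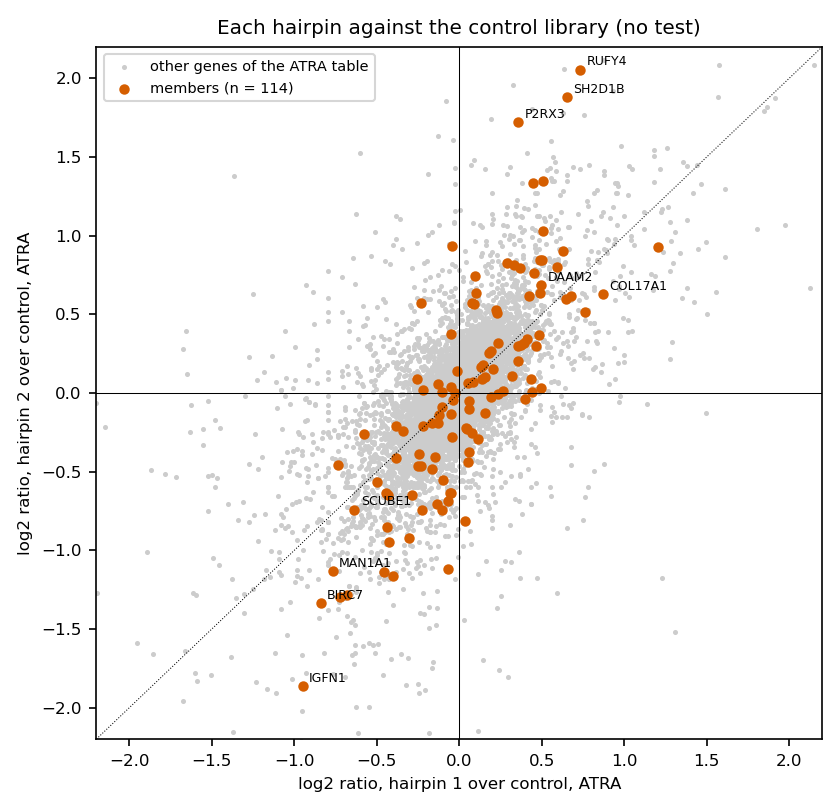
Log2 ratio to the control library in ATRA for hairpin 1 (x axis) and hairpin 2 (y axis), 1 library each, with the 114 genes in orange over the other genes of the ATRA table in grey; 39 genes lie outside the axes, which end at 2.2. Of the 114, 50 lie in the upper right quadrant and 42 in the lower left, and RUFY4, SH2D1B and P2RX3 stand far above the dotted line of equal ratios.

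Values in brackets after the levels are log2 fold changes of knockdown against control ± SE (n = 2 and 1 libraries). DAAM2 had the lowest p among the members. It measured 61.5 CPM under the control construct, 86.8 under hairpin 1 and 99.01 under hairpin 2, and both knockdown libraries were above the control (log2 fold change 0.60 ± 0.09, adjusted p = 0.160, edgeR quasi-likelihood test). RHBDL3, a gene of the rhomboid-like family of membrane proteins, stood at 25.1 CPM under the control construct, 35.6 under hairpin 1 and 45.2 under hairpin 2 (0.68 ± 0.15, adjusted p = 0.245, same test). MPEG1, which encodes the pore-forming protein perforin-2 of phagocytes, stood at 36.2 CPM under the control construct, 48.1 under hairpin 1 and 45.9 under hairpin 2 (0.38 ± 0.08, adjusted p = 0.249). In all 3 genes the control was the lowest library. DAAM2 overlaps MOCS1, and MPEG1 overlaps DTX4. The sources used here do not say whether counting used strand, so reads of such partners may be shared.

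The genes with the lowest values under knockdown included a secreted and a cytoskeletal protein. GDF15 stood at 48.6 CPM under the control construct, 30.3 under hairpin 1 and 19.97 under hairpin 2 (log2 fold change -0.95 ± 0.20, adjusted p = 0.245, edgeR quasi-likelihood test). MARCKS, an actin-binding substrate of protein kinase C at the plasma membrane, stood at 47.6 CPM under the control construct, 34.6 under hairpin 1 and 21.7 under hairpin 2 (-0.75 ± 0.23, adjusted p = 0.342, same test). In both genes the order was control, hairpin 1, hairpin 2 from high to low, as it was for 25.2% of all genes tested. With 1 control library, this order does not measure how far control and knockdown overlap. IGFN1, which encodes a protein of immunoglobulin and fibronectin domains known from skeletal muscle, had the lowest fold change of the 114. It measured 20.3 CPM under the control construct, 10.5 under hairpin 1 and 5.58 under hairpin 2 (-1.33 ± 0.30, adjusted p = 0.272), so that the hairpin 2 library was at 0.275 and the hairpin 1 library at 0.518 of the control.

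Sequence before the start site is shown for DAAM2, which had the lowest p but not the highest fold change, and for GDF15 and IGFN1. The 250 bases upstream of DAAM2 (chr6:39792126-39792375, plus strand), GDF15 (chr19:18385908-18386157, plus strand) and IGFN1 (chr1:201190574-201190823, plus strand) are given from RefSeq on GRCh38.p14, 5′ to 3′. Capitals mark every match, on either strand, to the motifs searched. These were ETS/PU.1 (GAGGAA), C/EBP (TTGCNNAA), AP-1 (TGANTCA), the single retinoic acid receptor sites AGGTCA and GGGTCA and, built from them, direct repeats with 5, 2 or 1 bases between, the interferon-stimulated response element or ISRE (GAAA and GAAA with any 2 bases between) and the E-box (CACGTG).
DAAM2: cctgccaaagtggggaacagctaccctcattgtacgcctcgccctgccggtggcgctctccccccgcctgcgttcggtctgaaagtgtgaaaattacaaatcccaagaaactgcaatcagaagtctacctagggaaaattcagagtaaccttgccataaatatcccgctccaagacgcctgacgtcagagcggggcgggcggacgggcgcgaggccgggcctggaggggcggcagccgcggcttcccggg
GDF15: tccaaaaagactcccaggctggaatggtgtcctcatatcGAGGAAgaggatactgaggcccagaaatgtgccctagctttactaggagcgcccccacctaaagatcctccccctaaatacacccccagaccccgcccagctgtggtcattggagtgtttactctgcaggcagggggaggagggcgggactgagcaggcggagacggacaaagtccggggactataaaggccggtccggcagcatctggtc
IGFN1: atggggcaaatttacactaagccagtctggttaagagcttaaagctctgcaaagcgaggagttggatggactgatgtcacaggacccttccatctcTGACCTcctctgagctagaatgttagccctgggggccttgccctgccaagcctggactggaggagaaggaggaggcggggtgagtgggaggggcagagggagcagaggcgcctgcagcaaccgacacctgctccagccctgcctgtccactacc
The DAAM2 window held no match. The GDF15 window held the ETS letters GAGGAA at 211 bases before the start, and the IGFN1 window held TGACCT, the reverse complement of AGGTCA, at 154 bases before the start. Over 34943 promoter windows of 300 bases, 27.9% held an ETS match and 25.6% a single receptor site, so such matches are common. The shares for the other motifs were 10.5% for C/EBP, 7.72% for AP-1, 3.57% for the ISRE, 7.23% for the E-box and 0.0258% for the direct repeat with 5 bases between. Only 75 of the 114 genes (65.8%) had a promoter in the RefSeq table, so a count of motifs over the set was void and is not given.

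G protein-coupled receptors and ion channels were the lists with the most members, with 6 each, and 5 of the 6 receptors were above the control with both hairpins (among them GPR34, GPR82, P2RY13 and P2RY14), while GPR65 was below it. The median log2 fold change of the 6 was 0.37, beside -0.01 over the 87 receptor genes of the list in the ATRA table, of which 32 were above and 32 below with both hairpins. None of the 87 was called by edgeR. GPR82 stood at 27.1 CPM under the control construct, 37.99 under hairpin 1 and 42.1 under hairpin 2 (log2 fold change 0.56 ± 0.10, adjusted p = 0.201, edgeR quasi-likelihood test). P2RY14, the receptor for UDP-glucose, stood at 1.29 CPM under the control construct, 1.84 under hairpin 1 and 3.29 under hairpin 2 (0.98 ± 0.45, adjusted p = 0.461, same test). The hairpins agreed in direction for GPR82 and P2RY14. Hairpin 2 was above hairpin 1 by a log2 ratio of 0.15 for GPR82 and 0.84 for P2RY14. The median absolute ratio over the 114 was 0.268.

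P2RY13, GPR34 and GPR65 differed less. P2RY13, an ADP receptor encoded beside P2RY14, stood at 23.05 CPM under the control construct, 26.5 under hairpin 1 and 25.7 under hairpin 2 (0.18 ± 0.10). GPR34, a receptor for lysophosphatidylserine encoded beside GPR82, stood at 4.11 CPM under the control construct, 4.50 under hairpin 1 and 4.61 under hairpin 2 (0.15 ± 0.21). The proton-sensing receptor gene GPR65 stood at 8.55 CPM under the control construct, 7.85 under hairpin 1 and 7.77 under hairpin 2 (-0.13 ± 0.16). In these 3 genes the log2 fold change was at most about the size of 2 SE. GPR82 and GPR34 overlap CASK, and P2RY13 and P2RY14 overlap MED12L, in RefSeq, which makes all 4 uncertain if strand was not used.

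The fatty acid receptors were not on that list. FFAR2, a receptor for acetate and propionate on neutrophils, stood at 42.6 CPM under the control construct, 39.7 under hairpin 1 and 40.1 under hairpin 2 (-0.10 ± 0.08). FFAR3 stood at 39.5 CPM under the control construct, 41.1 under hairpin 1 and 36.8 under hairpin 2 (-0.02 ± 0.10). The FFAR genes thus showed differences about as large as their standard errors or smaller, and the hairpins fell on both sides of the control for FFAR3.

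Of the 6 members on the list of ion channel and pore genes, 4 were above the control with both hairpins, 1 was below and 1 was split. CNGA4 and PKD2L1, channel genes outside the list, were below and above the control with both hairpins, in that order. The median log2 fold change of the 6 was 0.45, beside -0.04 over the 119 channel genes in the table, of which 30 were above, 52 below and 0 called by edgeR. TRPM4, a calcium-activated cation channel, stood at 10.5 CPM under the control construct, 14.4 under hairpin 1 and 17.8 under hairpin 2 (0.61 ± 0.17, adjusted p = 0.321, edgeR quasi-likelihood test). TRPV4, a cation channel opened by cell swelling and warmth, stood at 8.15 CPM under the control construct, 11.5 under hairpin 1 and 14.6 under hairpin 2 (0.68 ± 0.19, adjusted p = 0.321, same test). Both channel genes went up in the order control, hairpin 1, hairpin 2. P2RX3, an ATP-gated channel known from sensory neurons, stood at 1.66 CPM under the control construct, 2.13 under hairpin 1 and 5.51 under hairpin 2 (1.19 ± 0.58, adjusted p = 0.483), and most of its difference came from the hairpin 2 library. CLIC3, a chloride intracellular channel gene, stood at 4.38 CPM under the control construct, 4.54 under hairpin 1 and 3.22 under hairpin 2 (-0.17 ± 0.27) and was split.

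AQP9, a channel for water, glycerol and other small solutes in neutrophils and liver, was the gene of the channel list below the control. It measured 23.2 CPM under the control construct, 17.1 under hairpin 1 and 12.9 under hairpin 2 (-0.63 ± 0.17, adjusted p = 0.321, edgeR quasi-likelihood test). All 3 solute carriers were also below with both hairpins, with a median of -0.41, beside 0.00 over the 255 solute carriers in the table (90 above, 100 below, 0 called by edgeR). SLC8A1, a sodium-calcium exchanger, stood at 6.41 CPM under the control construct, 4.31 under hairpin 1 and 5.35 under hairpin 2 (-0.41 ± 0.22). SLC6A12, a betaine and GABA transporter, stood at 2.85 CPM under the control construct, 2.09 under hairpin 1 and 1.84 under hairpin 2 (-0.53 ± 0.28). SLC24A4, a potassium-dependent sodium-calcium exchanger, stood at 56.2 CPM under the control construct, 55.1 under hairpin 1 and 56.1 under hairpin 2 (-0.01 ± 0.07). The last differed by less than its standard error.

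Among secreted signals, both members of the cytokine list, GDF15 and LIF, were below the control with both hairpins, and so were both of the IL-1 and inflammasome list, IL1A and AIM2. The IL-1 and inflammasome list as a whole had 8 of 21 genes above and 10 below, with a median of -0.02 and none called by edgeR. Of the 22 genes of the cytokine list in the ATRA table, 14 were below and 5 above, with a median of -0.19 and none called by edgeR. LIF, a cytokine of the IL-6 family, stood at 20.2 CPM under the control construct, 14.99 under hairpin 1 and 10.4 under hairpin 2 (-0.66 ± 0.20, adjusted p = 0.342, edgeR quasi-likelihood test). TNFSF15, a TNF superfamily ligand also called TL1A, stood at 10.1 CPM under the control construct, 7.65 under hairpin 1 and 4.52 under hairpin 2 (-0.73 ± 0.29, adjusted p = 0.406, same test). Both genes went down in the order control, hairpin 1, hairpin 2. IL1A, the inflammatory cytokine interleukin-1 alpha, stood at 4.45 CPM under the control construct, 3.74 under hairpin 1 and 3.22 under hairpin 2 (-0.35 ± 0.23), and AIM2, an inflammasome sensor of cytosolic DNA, at 8.11 CPM under the control construct, 7.38 under hairpin 1 and 4.97 under hairpin 2 (-0.39 ± 0.25). These 2 were named after their values were seen. Of the 27 TNF superfamily genes in the table, 10 were above and 8 below, with none called by edgeR. Of its receptors among the members, CD40, the costimulatory receptor of antigen-presenting cells, stood at 14.5 CPM under the control construct, 13.3 under hairpin 1 and 15.1 under hairpin 2 (-0.03 ± 0.14). TNFRSF9, also called 4-1BB, stood at 8.89 CPM under the control construct, 9.90 under hairpin 1 and 9.56 under hairpin 2 (0.13 ± 0.15). Both receptor genes lay within about 1 SE of the control.

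Of the 4 members on the list of secretory vesicle and late maturation proteins of neutrophils, AQP9, FFAR2 and TNFAIP6 were below the control with both hairpins and CDA was split. Over the 24 genes of the list in the ATRA table, 13 were below and 3 above, with a median of -0.19 and none called by edgeR. TNFAIP6, the hyaluronan-binding protein TSG-6, stood at 6.62 CPM under the control construct, 4.68 under hairpin 1 and 4.48 under hairpin 2 (-0.53 ± 0.19, adjusted p = 0.374, edgeR quasi-likelihood test). CDA, the pyrimidine salvage enzyme cytidine deaminase, stood at 4.21 CPM under the control construct, 4.31 under hairpin 1 and 2.40 under hairpin 2 (-0.32 ± 0.36). CDA was thus low in the hairpin 2 library alone.

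Of the 5 adhesion and matrix genes, 3 were above the control and 2 below, with a median of 0.34. Over the 179 genes of that list, 65 were above and 78 below, with a median of -0.01 and none called by edgeR. SELP, which encodes the adhesion receptor P-selectin, stood at 17.6 CPM under the control construct, 13.5 under hairpin 1 and 15.3 under hairpin 2 (-0.29 ± 0.13), below the control with both hairpins. ITGA9, the integrin alpha 9 subunit, stood at 7.09 CPM under the control construct, 8.93 under hairpin 1 and 12.4 under hairpin 2 (0.59 ± 0.23, adjusted p = 0.402, edgeR quasi-likelihood test). COL17A1, a transmembrane collagen of hemidesmosomes, stood at 2.04 CPM under the control construct, 3.74 under hairpin 1 and 3.16 under hairpin 2 (0.76 ± 0.28, adjusted p = 0.379, same test). COL1A1, a chain of type I collagen, stood at 3.97 CPM under the control construct, 5.15 under hairpin 1 and 4.90 under hairpin 2 (0.34 ± 0.21). These last 3 were above the control in both knockdown libraries. DCSTAMP stood at 45.8 CPM under the control construct, 38.9 under hairpin 1 and 33.2 under hairpin 2 and CHST15, a sulfotransferase that makes highly sulfated chondroitin, at 34.6 CPM under the control construct, 31.2 under hairpin 1 and 26.04 under hairpin 2. Both were below with both hairpins (-0.34 ± 0.11 and -0.27 ± 0.12).

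Of the 48 genes on the list of interferon-induced genes in the ATRA table, 27 were above the control and 6 below with both hairpins. Their median was 0.05 and none was called by edgeR. Of the 4 members on this list, 1 was above, 1 was below and 2 were split. GBP1 and GBP4 are guanylate-binding protein genes of the same cluster, with other GBP genes between them. They encode large GTPases that act against intracellular pathogens. GBP1 stood at 31.2 CPM under the control construct, 30.03 under hairpin 1 and 20.1 under hairpin 2 (-0.31 ± 0.21, adjusted p = 0.606, edgeR quasi-likelihood test), and GBP4 at 3.33 CPM under the control construct, 5.66 under hairpin 1 and 4.75 under hairpin 2 (0.65 ± 0.23, adjusted p = 0.373, same test). GBP1 was lowest with hairpin 2, while GBP4 was lowest in the control, and neither passed the threshold. APOL3, an apolipoprotein L gene, stood at 10.2 CPM under the control construct, 9.49 under hairpin 1 and 10.3 under hairpin 2 (-0.05 ± 0.15), and the ETS family repressor gene ETV7 at 9.20 CPM under the control construct, 9.57 under hairpin 1 and 8.87 under hairpin 2 (0.00 ± 0.15). Both were split around the control.

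The promoters of the GBP pair are shown because these paralogs lie in 1 cluster and stood on opposite sides of the control. They are the 250 bases upstream of GBP1 (chr1:89065209-89065458, minus strand) and, with 6 more bases past the start, of GBP4 (chr1:89198937-89199192, minus strand), from RefSeq on GRCh38.p14, 5′ to 3′, with the same motifs in capitals.
GBP1: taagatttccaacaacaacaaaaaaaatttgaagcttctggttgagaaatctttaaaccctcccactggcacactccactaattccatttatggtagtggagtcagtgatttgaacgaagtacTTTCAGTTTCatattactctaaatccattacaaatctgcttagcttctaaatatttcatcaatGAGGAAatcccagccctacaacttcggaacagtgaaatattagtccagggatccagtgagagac
GBP4: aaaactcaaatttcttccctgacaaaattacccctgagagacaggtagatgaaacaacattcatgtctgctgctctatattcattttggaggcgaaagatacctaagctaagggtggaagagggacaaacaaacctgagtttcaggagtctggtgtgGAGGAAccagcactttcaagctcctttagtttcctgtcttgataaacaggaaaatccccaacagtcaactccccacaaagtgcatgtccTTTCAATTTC
Both held an ISRE match, TTTCAGTTTC at 127 bases before the start in GBP1 and TTTCAATTTC at 4 bases before the start in GBP4. The GBP4 match runs 6 bases past the start, so the 250 bases upstream alone do not hold all of it. Only the GBP4 window was lengthened, by just these bases. Both promoters also held the ETS letters GAGGAA, at 64 bases before the start in GBP1 and 93 in GBP4. The ISRE letters were in 3.57% of all promoter windows, which are 300 bases long.

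The transcription factor list held TFEC, EGR3 and ETV7, with 1 above the control and 2 split, and NRIP1 and ATOH8 were regulators outside it. TFEC, a factor of the MITF family expressed in macrophages, stood at 2.48 CPM under the control construct, 3.39 under hairpin 1 and 6.27 under hairpin 2 (0.95 ± 0.40, adjusted p = 0.427, edgeR quasi-likelihood test). NRIP1, a corepressor that binds nuclear receptors including the retinoic acid receptors, stood at 12.4 CPM under the control construct, 18.7 under hairpin 1 and 21.6 under hairpin 2 (0.70 ± 0.14, adjusted p = 0.230, same test). ATOH8, a basic helix-loop-helix factor, stood at 2.68 CPM under the control construct, 4.15 under hairpin 1 and 5.02 under hairpin 2 (0.77 ± 0.25, adjusted p = 0.351). The control was the lowest library for TFEC, NRIP1 and ATOH8. EGR3, an immediate-early zinc finger factor, stood at 14.7 CPM under the control construct, 15.5 under hairpin 1 and 12.3 under hairpin 2 (-0.08 ± 0.16) and was split. Of the 150 factors on the list in the ATRA table, 83 were below and 32 above, with a median of -0.08 and none called by edgeR.

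The 3 largest fold changes above the control, of RUFY4, SH2D1B and P2RX3, came with the widest differences between the hairpins. The selection itself favours such genes, since it used the mean over the 3 libraries. All 3 were below 2.07 CPM, the mean of the last gene kept, in the control, and SH2D1B also under hairpin 1. Markers of eosinophils, basophils and mast cells also summed highest under hairpin 2, as given above, and their part in these values was not tested. RUFY4, an adaptor protein of autophagy in dendritic cells, stood at 1.49 CPM under the control construct, 2.49 under hairpin 1 and 6.22 under hairpin 2 (1.53 ± 0.58, adjusted p = 0.394, edgeR quasi-likelihood test). SH2D1B, the adaptor EAT-2 of SLAM family receptors, stood at 1.02 CPM under the control construct, 1.61 under hairpin 1 and 3.76 under hairpin 2 (1.38 ± 0.58, adjusted p = 0.425, same test). For RUFY4 the hairpin 2 library was 4.16 times the control and the hairpin 1 library 1.66 times. The log2 ratio of hairpin 2 to hairpin 1 was 1.37 for P2RX3, 1.32 for RUFY4 and 1.23 for SH2D1B, the 3 highest of the 114. At the other end it was -1.05 for BMX, a TEC family kinase, -0.91 for IGFN1 and -0.85 for CDA. BMX stood at 3.16 CPM under the control construct, 3.01 under hairpin 1 and 1.46 under hairpin 2 (-0.49 ± 0.43).

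The other genes among the 10 lowest came from several functions. BIRC7, the inhibitor of apoptosis protein livin, stood at 6.38 CPM under the control construct, 3.56 under hairpin 1 and 2.53 under hairpin 2 (-1.06 ± 0.26, adjusted p = 0.294, edgeR quasi-likelihood test). MAN1A1, a Golgi mannosidase that trims N-glycans, stood at 3.63 CPM under the control construct, 2.13 under hairpin 1 and 1.66 under hairpin 2 (-0.93 ± 0.29, adjusted p = 0.342, same test). SCUBE1, a secreted protein of CUB and EGF-like domains, stood at 13.1 CPM under the control construct, 8.44 under hairpin 1 and 7.84 under hairpin 2 (-0.69 ± 0.15, adjusted p = 0.240). The hairpins were close to each other for SCUBE1, with a log2 ratio of -0.11. C9orf50 stood at 3.46 CPM under the control construct, 2.09 under hairpin 1 and 1.41 under hairpin 2 (-0.97 ± 0.32) and overlaps NTMT1. Of the 3 lipid genes, LIPN and OLR1 were above the control and APOL3 was split, beside 36 above and 37 below of the 98 lipid genes in the table (median 0.00, none called by edgeR). LIPN, a lipase of skin, stood at 2.72 CPM under the control construct, 3.50 under hairpin 1 and 4.72 under hairpin 2 (0.60 ± 0.28). OLR1, the receptor LOX-1 for oxidized LDL, stood at 2.07 CPM under the control construct, 2.86 under hairpin 1 and 2.55 under hairpin 2 (0.39 ± 0.28). At the edge of the selection, the lipase gene LIPM stood at 2.17 CPM under the control construct, 2.25 under hairpin 1 and 1.86 under hairpin 2 (-0.08 ± 0.31) and CNGA4 at 2.27 CPM under the control construct, 1.96 under hairpin 1 and 1.97 under hairpin 2 (-0.21 ± 0.29).

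**Figure D3:**
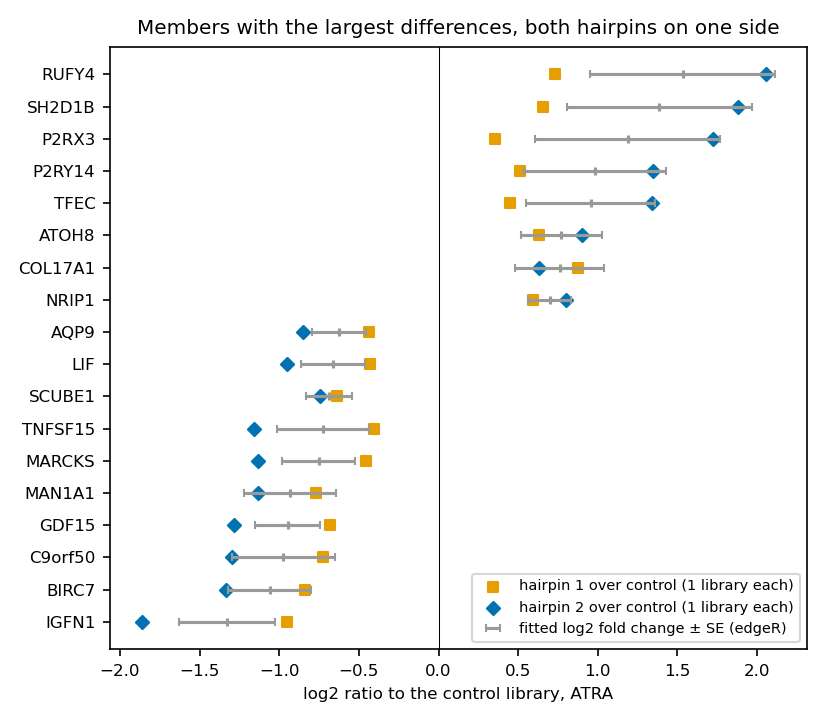
Log2 ratio to the control library in ATRA for 8 of the 10 highest and for the 10 lowest fold changes among genes with both hairpins on 1 side of the control. Squares and diamonds are single libraries of hairpin 1 and hairpin 2, and grey bars the fitted edgeR log2 fold change ± SE (n = 2 knockdown and 1 control). For NRIP1 and SCUBE1 the hairpins lie close together, for RUFY4, SH2D1B and P2RX3 far apart.

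The size of the differences was also set beside that of other genes. The median absolute log2 fold change of the 114 was 0.341, beside 0.106 over all genes tested, and 30 of 114 (26.3%) differed by at least 1.5-fold, beside 5.65%. The members also have fewer counts, with a median of 655 over the 3 libraries, beside 4032. They were therefore set beside genes listed in both tables at the same level. Of the 34 members with a mean of at least 10 CPM, 10 (29.4%) differed by at least 1.5-fold, beside 51 of 6039 genes in both tables (0.845%), with median CPM of 19.3 and 34.1. Of the 80 members under 10 CPM, 20 (25.0%) did, beside 6.76% of 1804 genes in both tables, with median CPM of 3.86 and 5.09. Near the edge of the selection, a gene could enter through 1 high library, so the share under 10 CPM may be partly set by the choice of genes, which was not tested.

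The spread between the hairpins was compared in the same way. The median absolute log2 ratio of hairpin 2 to hairpin 1 was 0.223 for the 34 members of at least 10 CPM, beside 0.0738 in the genes of both tables, and 0.278 for the 80 below, beside 0.166. The larger medians were thus seen between the knockdown libraries as well as between knockdown and control. At an unadjusted p under 0.05 there were 15 of the 34 (44.1%), beside 12.1% of the genes in both tables, and 15 of the 80 (18.8%), beside 7.65%. These shares are descriptions, since the genes were chosen with results known and were not tested as a set. The 36 genes that the symbol list dropped had a median absolute log2 fold change of 0.295 and a median log2 fold change of 0.15, with none called by edgeR.

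The direction was also read in each sequencing run. Knockdown and control lay in the same direction in run 1 and run 2 for 96 of the 114 genes, and for all 30 of those that differed by at least 1.5-fold. DAAM2 had a log2 fold change of 0.58 in run 1 and 0.65 in run 2, GDF15 -1.01 and -1.08, and IGFN1 -1.40 and -1.30. The 30 genes were picked on the sum of the same runs, which favours agreement, and the share over all genes was not computed. Runs repeat the same libraries, so their agreement measures sequencing and not the spread between cultures. With run 1 alone edgeR called 0 of the 114, at 0.0156% of all genes called higher and 0.133% lower. With run 2 alone it called 7 higher (among them DAAM2, MPEG1, GPR82, RHBDL3, NRIP1 and RUFY4) and 7 lower (MARCKS, GDF15, AQP9, LIF, IGFN1, TNFSF15 and BIRC7), beside 1.63% and 1.88% of all genes. The count of calls thus depended on the run, and the cause was not tested.

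**Figure D4:**
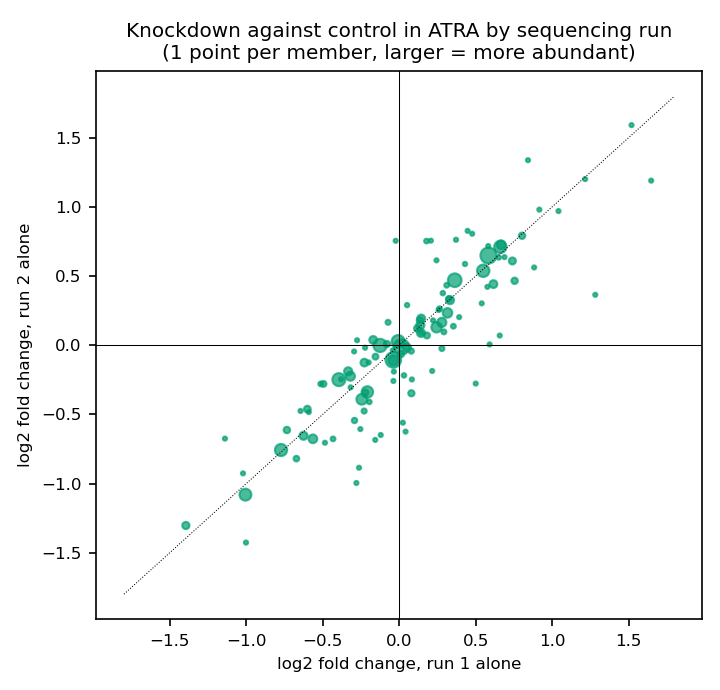
Log2 fold change of knockdown against control in ATRA from run 1 alone (x axis) and run 2 alone (y axis), 1 point per gene for the 114 genes, with larger points for higher mean CPM. Points in the upper right and lower left have the same direction in both runs, which holds for 96 of 114, and the dotted line marks equal values.

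The authors' deposited table called 10 of the 114 higher (among them TRPM4, RUFY4, MPEG1, TRPV4, GPR82, NRIP1, RHBDL3 and DAAM2) at its adjusted p under 0.05, beside 2.14% of its genes. The authors' deposited table called 9 lower (IGFN1, BIRC7, SCUBE1, AQP9, LIF, TNFSF15, MLXIPL, MAN1A1 and GDF15), beside 2.28%. The authors' deposited table holds 2 columns per library and may have counted runs as replicates in its test.

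The genome neighbourhood was not used in the selection. In the RefSeq gene order on GRCh38.p14, 113 of the 114 genes could be placed, and genes within 2 protein-coding places on either side were taken as neighbours. Of the 113, 49 (43.4%) had a neighbour that was itself listed in the ATRA table alone, beside 9.11% of genes in both tables. With overlapping neighbours left out, 44 (38.9%) did, beside 8.74%. Of the 150 most abundant genes listed in the DMSO table alone, 149 were placed. A DMSO-only neighbour stood beside 18.1% of them and an ATRA-only one beside 4.70%. With overlapping neighbours left out these shares were 17.4% and 4.70%. Listing in 1 table alone is also what the selection of the 114 used. Several of the ATRA-only neighbours of the 114 genes were members too, in 11 groups with 25 of the 114 genes. They included SELP and the coagulation factor gene F5 on chromosome 1, CD22, FFAR2 and FFAR3 on chromosome 19, the lectin-like receptor genes CLEC7A and OLR1 on chromosome 12, GPR34 and GPR82 on the X chromosome, P2RY13 and P2RY14 on chromosome 3, and LIPM and LIPN on chromosome 10. The pepsinogen genes PGA3, PGA4 and PGA5 on chromosome 11 are near-identical copies whose reads may be shared, and so are CYP4F8 and CYP4F12 on chromosome 19 in part.

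Neighbours listed in both tables had an ATRA response that could be read. Of the 217 such neighbours that do not overlap the member, 59 (27.2%) were at least 2-fold higher in ATRA over the 3 constructs and 15 (6.91%) at least 2-fold lower. Beside genes in both tables, 9.88% of 11860 neighbours were higher and 11.2% lower. Beside the 150 most abundant genes listed in the DMSO table alone, 6.30% of 365 neighbours were higher and 20.8% lower. The share of higher neighbours was thus highest beside the 114 genes, and that of lower neighbours beside the DMSO-only genes. Examples were chosen after their values were seen. BPI, a bactericidal granule protein gene and a neighbour of KIAA1755, had a log2 ratio of ATRA to DMSO of 8.92 (with 0.1 CPM added). The ratio was 5.26 for the cytokine gene IL1B, a neighbour of IL1A and 4.96 for SERPINB6, a neighbour of SERPINB9. In the other direction TAMALIN, a scaffold protein gene and a neighbour of ACVRL1, had -5.28, and GJA1, a gap junction gene and a neighbour of MAN1A1, had -3.26. These shares are descriptions over genes, which are not independent replicates, and no test was made.

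**Figure D5:**
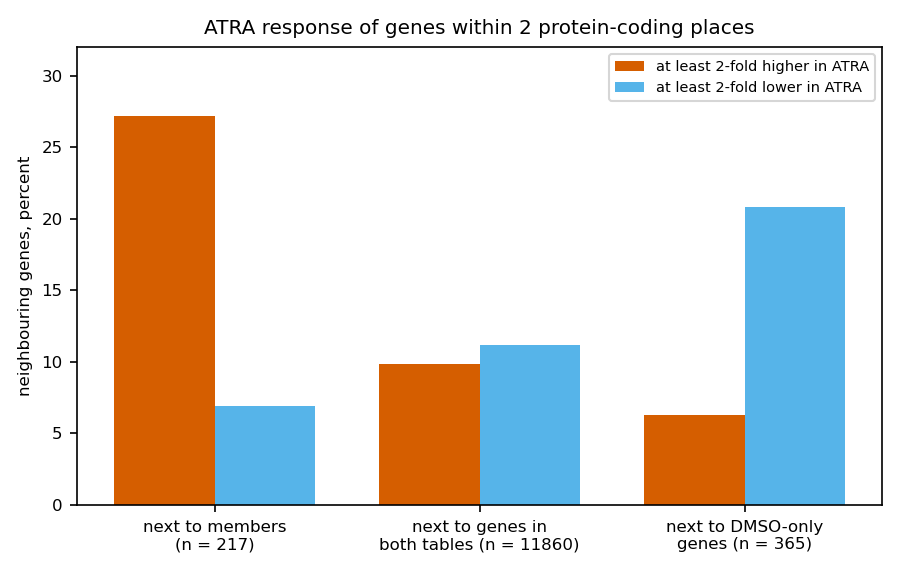
Share of neighbouring genes (percent) at least 2-fold higher or lower in ATRA than in DMSO, for non-overlapping neighbours within 2 protein-coding places of the 114 genes, of genes in both tables and of the 150 most abundant genes listed in DMSO alone. The higher bar reaches 27.2% beside the 114 genes, 9.88% beside genes in both tables and 6.30% beside DMSO-only genes.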

How the data were processed

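Gene-level RNA-seq counts came from 6 NB4 libraries, of which the 3 in ATRA hold the members. The authors deposited 1 table per treatment with raw counts per gene, in whole numbers with no normalization, with each library in 2 columns that were read as its sequencing runs. Per the file headers, log2 fold changes and both raw and adjusted p-values of the authors stand in the same files. A further 12 columns, of normalized values, were left out. The submitters' processing notes name the build GRCh37.p13 and the tools DESeq2, Picard 2.5.0, STAR and bcl2fastq, without their roles. The gene counting, its use of strand and the filter behind each table are not given in the sources used here.

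Runs of a library were summed. Counts of the 3 ATRA libraries (1 control, 2 knockdown) were filtered with filterByExpr by group, which left out 1 gene, scaled with TMM and tested with edgeR 4.0.16 quasi-likelihood (R 4.3.3) with Benjamini-Hochberg adjustment over 12837 genes and a threshold of 0.05. The SE of a log2 fold change was its size over the root of edgeR's F. Ratios of single libraries used a prior count of 0.125 and have no test. CPM values use TMM-scaled totals. Totals ran from 29521141 to 51324652 counts, and the median member had 655 counts over the 3 libraries. Alternatives were limma-voom (limma 3.58.1), DESeq2 1.42.0, other scalings, no filter, each run alone, leaving out each knockdown library and other cuts of the ranking. Added after seeing the data were limma-voom and no filter for single genes, overlapping neighbours left out, and the division at 10 CPM. The fit was tested on simulated data. Python 3.11.15, pandas 2.3.3 and matplotlib 3.10.9 made tables and figures.

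The members and the 23 gene lists were chosen with earlier results of these data known, so nothing is adjusted over a list alone. Genes were named by rule, 55 in all. These are the 12 members with the highest mean CPM, the 10 highest and 10 lowest fold changes with both hairpins on 1 side, up to 4 members of each of the 9 lists with 3 or more, the 3 members inside the edge, and the 3 with the largest hairpin difference in each direction. Exon lengths came from GENCODE release 29, and gene order and promoters from RefSeq on GRCh38.p14, matched by symbol. No coordinates of GRCh37.p13 are given. A few named members are not reported here, though they enter the counts and medians.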

Additional observations from a re-analysis of the deposited data

How the results depend on the processing

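With run 2 alone edgeR called 7 members higher and 7 lower, in place of 0 and 0, and DESeq2 called 2 higher. The cause was not tested. Run 1 alone, total counts, DESeq2 size factors, no filter and limma-voom each gave 0 and 0. The median log2 fold change of the members was 0.04, and 0.0071 with run 2 alone and 0.0041 over the 69 genes left of the 100 highest. Without each hairpin library in turn it ran from 0.0105 to 0.0571, with no test since 1 library remained on each side.

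Small differences changed sign. With run 1 alone SLC24A4 was at 0.015, CD40 at 0.051, APOL3 at 0.011, ETV7 at -0.081 and CLIC3 at 0.024. With run 2 alone FFAR3 was at 0.027 and EGR3 at 0.038. Leaving out hairpin 1 or hairpin 2 in turn, FFAR3 ran from -0.10 to 0.057, CD40 from -0.13 to 0.057, EGR3 from -0.25 to 0.079, APOL3 from -0.11 to 0.0053, ETV7 from -0.053 to 0.057, CLIC3 from -0.44 to 0.052, CDA from -0.81 to 0.032 and LIPM from -0.23 to 0.050. With total counts, no filter, limma-voom and DESeq2, none of the 55 named genes changed direction. TMM totals in the ranking gave the same 114 genes.

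No paired analysis was possible because control and knockdown share only 1 replicate number in ATRA and the members have no DMSO counts. With a median of 655 counts over 3 libraries and 1 residual degree of freedom, single-gene errors are wide. Where a difference missed the threshold, this does not show that knockdown and control were alike. The lone control library enters every comparison, so its own deviation moves all of them.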

Other observations

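Some members outside the lists above share a function, and their values are given here with no test beyond the edgeR fit, in which none was called. They were picked after their values were seen. Coagulation genes included F5, a cofactor of thrombin formation, at 3.36 CPM under the control construct, 4.50 under hairpin 1 and 5.15 under hairpin 2 (log2 fold change 0.52 ± 0.23). PROS1, the anticoagulant protein S, stood at 3.26 CPM under the control construct, 3.72 under hairpin 1 and 3.92 under hairpin 2 (0.23 ± 0.23). Both were lowest in the control. The troponin genes of fast and slow muscle, TNNI2 and TNNT1, stood at 8.99 CPM under the control construct, 8.69 under hairpin 1 and 9.25 under hairpin 2 and at 3.90 CPM under the control construct, 3.64 under hairpin 1 and 2.66 under hairpin 2, in that order. TNNI2 showed a log2 fold change of -0.00 ± 0.15 and TNNT1 of -0.30 ± 0.28. The pepsinogen gene PGA3 stood at 2.21 CPM under the control construct, 2.70 under hairpin 1 and 3.92 under hairpin 2, PGA4 at 2.27 CPM under the control construct, 2.43 under hairpin 1 and 3.81 under hairpin 2 and PGA5 at 2.002 CPM under the control construct, 2.11 under hairpin 1 and 2.98 under hairpin 2. All 3 were highest with hairpin 2, but they are near-identical copies and do not count as separate measurements.

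CLEC7A, the beta-glucan receptor dectin-1, stood at 24.4 CPM under the control construct, 20.4 under hairpin 1 and 25.95 under hairpin 2 (-0.07 ± 0.15). CD22, a sialic acid-binding inhibitory receptor of B cells, stood at 9.88 CPM under the control construct, 10.5 under hairpin 1 and 10.4 under hairpin 2 (0.08 ± 0.14). ZBP1, a sensor of Z-form nucleic acids, stood at 13.5 CPM under the control construct, 16.2 under hairpin 1 and 13.7 under hairpin 2 (0.15 ± 0.15). The differences of these 3 genes were about as large as their standard errors or smaller. MLXIPL, the glucose-responsive transcription factor ChREBP, stood at 13.03 CPM under the control construct, 9.65 under hairpin 1 and 8.33 under hairpin 2 and was lower in both knockdown libraries (-0.53 ± 0.15). KIAA1755 stood at 12.999 CPM under the control construct, 16.7 under hairpin 1 and 16.01 under hairpin 2 and was higher in both (0.33 ± 0.12).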
